A study of Mus musculus with 4 samples.

Results

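The mouse miRNA array carried 39 mature miRNAs of 2 large rodent clusters, out of 567 mouse miRNAs in all. Members were chosen by name alone. The families miR-297, miR-466, miR-467 and also miR-669, with any letter, arm or star, gave 25 members of the Sfmbt2 intron cluster, and the names miR-290 to miR-295 gave 14 members of the cluster called miR-290 here. They were measured in B104, a clonal neuroblastoma line, 48 h after transfection of an siRNA duplex against RBM3 (siRBM3, 20 nM, Lipofectamine RNAiMax, 2 arrays), and 48 h after mock transfection with no siRNA (control, 2 arrays). RBM3 is an RNA-binding protein induced by cold, and the comparison asked how miRNA levels differed when it was knocked down. The labels give the line as mouse, while the study's methods cite it with a reference on rat cell lines. The labels do not say whether the 2 arrays of a group came from separate cultures. The study describes repeated experiments behind its profiling but does not match them to these arrays. Every p-value rests on the spread between these arrays, in large part pooled over the miRNAs fitted, and that spread may be technical. A miRNA array does not measure RBM3 itself, so the knockdown was not checked here. The study reports from Western blots of its profiling experiments that the siRNA reliably lowered RBM3.

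Both clusters are known from early development. The miR-290 cluster is a compact run of hairpins that is transcribed as 1 precursor and is abundant in mouse embryonic stem cells, where miRNAs with its shared seed promote the short G1 phase and pluripotency and decline on differentiation. The Sfmbt2 cluster is a long run of duplicated hairpins in an intron of Sfmbt2, an imprinted gene with a role in the placenta. In the gene table for GRCm38.p6, 71 of 81 genes named Mir297, Mir466, Mir467 or Mir669 lay inside Sfmbt2, so some array names may belong to copies elsewhere. All 9 Mir290 to Mir295 genes lay on chromosome 7, within the annotated extent of Nlrp12, and 7 of the 9 also overlapped the lncRNA D7Ertd143e. Mature miRNAs within a family differ at few bases, and signal on a probe for 1 member can include its relatives.

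Mature sequences were taken from RefSeq (GRCm38.p6) for 13 of the 14 miR-290 cluster members. Some of them are shown, sorted by seed, bases 2 to 8, which is in capitals. The first 4 carry the AAGUGC-type seed of the stem cell miRNAs, as does miR-291b-3p (AAGUGCA), which is not shown. The next 3 share the seed of the other arm. Among the 139 array names matched exactly in the table, miR-574-5p is the one miRNA outside the clusters that holds UGUGUG. That motif occurred in 1.67% of the 1679 mature miRNAs of the table, and among the miR-290 cluster members in miR-291a-3p, miR-293* and miR-294. No Sfmbt2 member was matched in the table, so none of them was searched for the motif.
miR-294: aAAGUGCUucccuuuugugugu
miR-291a-3p: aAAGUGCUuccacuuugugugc
miR-295: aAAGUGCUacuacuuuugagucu
miR-290-3p: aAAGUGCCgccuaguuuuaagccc
miR-290-5p: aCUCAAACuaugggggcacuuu
miR-292-5p: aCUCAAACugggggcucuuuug
miR-293*: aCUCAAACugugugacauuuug
miR-574-5p: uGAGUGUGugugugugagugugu
miR-294 lies at chr7:3220691-3220712 and miR-290-5p at chr7:3218639-3218660, both on the plus strand. miR-574-5p lies at chr5:64970328-64970350 on the plus strand, in the Mir574 gene, inside the annotated extents of Tlr6 and Fam114a1.

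The total gene signal, which the scanner software sums from a miRNA's probes after background subtraction, is in array intensity units and can be negative, and a flag says whether the miRNA was detected. Each member had 2 to 4 probes and 20 spots, and no spot was saturated. Over all 567 miRNAs the summed signal was 73765 and 75402 on the siRBM3 arrays, against 166784 and 184457 on the control arrays, and 147 and 162 miRNAs were detected on the siRBM3 arrays, against 177 and 190 on the control arrays. All 6 positive control probes were dimmer on the siRBM3 arrays too, by log2 differences of -1.57 to -0.52. Their part in any difference below was not tested. Of 6 neural marker miRNAs, 3 were detected on all 4 arrays, 5 had both siRBM3 signals below both control signals and 1 had both above, with summed signals of 176 and 180 on the siRBM3 arrays against 1009 and 1122 on the control arrays. The 4 muscle markers were detected on every array, at 319 to 5961 units, and all 4 were also lower, with summed signals of 4441 and 4591 on the siRBM3 arrays against 10192 and 12735 on the control arrays. The 4 blood markers, the liver marker and the 5 pluripotency markers, miR-302a to miR-302d and miR-367, were detected on none.

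Few members of either cluster were detected. No member was detected on all 4 arrays, whereas 130 of the 567 miRNAs were. Of the 25 Sfmbt2 members, 5 and 10 were detected on the siRBM3 arrays, against 2 and 3 on the control arrays, and 15 were detected nowhere. Of the 14 miR-290 cluster members, 1 and 2 were detected on the siRBM3 arrays, against 0 and 1 on the control arrays, and 12 were detected nowhere. The 4 members miR-466c-5p, miR-466h, miR-467c and miR-669a were detected on both siRBM3 arrays and on no control array, a pattern shown by 2.29% of all mouse miRNAs (13 of 567). The opposite pattern, which 7.23% of all miRNAs (41) showed, was seen in no member.

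While the summed signal of the array was lower after knockdown, the summed signal of the Sfmbt2 members was higher after knockdown, at 286 and 501 on the siRBM3 arrays against 169 and 183 on the control arrays. The miR-290 cluster members summed to 81.6 and 75.05 on the siRBM3 arrays, against 14.8 and 41.0 on the control arrays. Both siRBM3 arrays exceeded both control arrays for each sum. The Sfmbt2 sum rested most on miR-669c, miR-466c-5p and miR-669a, whose mean signals were higher by 85.4, 59.2 and 42.2 units. The median Sfmbt2 signal was 4.45 and 10.4 units on the siRBM3 arrays, against 6.36 and 6.365 on the control arrays. On siRBM3 array 1 it was thus below both control arrays. The miR-290 cluster sum rested most on miR-294 and miR-290-5p, higher in mean by 21.95 and 20.8 units. In RNA from a whole culture, more cells with a miRNA and more of it per cell cannot be told apart. Member by member, 11 Sfmbt2 miRNAs had both siRBM3 signals above both control signals, 6 had both below and 8 overlapped. In the miR-290 cluster 6 lay above, 2 below and 6 overlapped. Over all miRNAs 17.1% lay above and 46.4% below, shares that also cover brighter miRNAs, while most members were detected on no array. Of the 8 miR-302 and miR-367 forms on the array, star forms included and all undetected, 4 lay above and 0 below.

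The group difference was tested with limma on log2(signal + 20) of all 567 miRNAs, scale-normalized, blocked on replicate number, with Benjamini-Hochberg adjustment at 0.05. A fold change on this scale understates the change of a dim miRNA. Each miRNA's variance was drawn by limma toward a value shared by all (2.94 prior degrees of freedom). An SE near the lowest of any miRNA, 0.0895, mainly reflects that shared value. Across the array 9.17% of miRNAs (52) were called higher and 31% (176) lower in siRBM3 cells. Of the 25 Sfmbt2 members 8 were higher, none was lower and 17 were not called; at an unadjusted p under 0.05, 10 were higher and 2 lower. Of the 14 miR-290 cluster members 2 were higher, none was lower and 12 were not called; at an unadjusted p under 0.05, 4 were higher and 0 lower. The median log2 difference was 0.21 for the Sfmbt2 cluster and 0.22 for the miR-290 cluster, against 0.01 for all mouse miRNAs. Members ran from -0.50 to 1.70 in the Sfmbt2 cluster and from -0.07 to 0.99 in the miR-290 cluster. The 214 miRNAs detected on at least 1 array had a median of -1.22, while 27 of the 39 members were detected nowhere. The 0.01 is thus not a median of miRNAs as dim as most members.

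**Figure D1:**
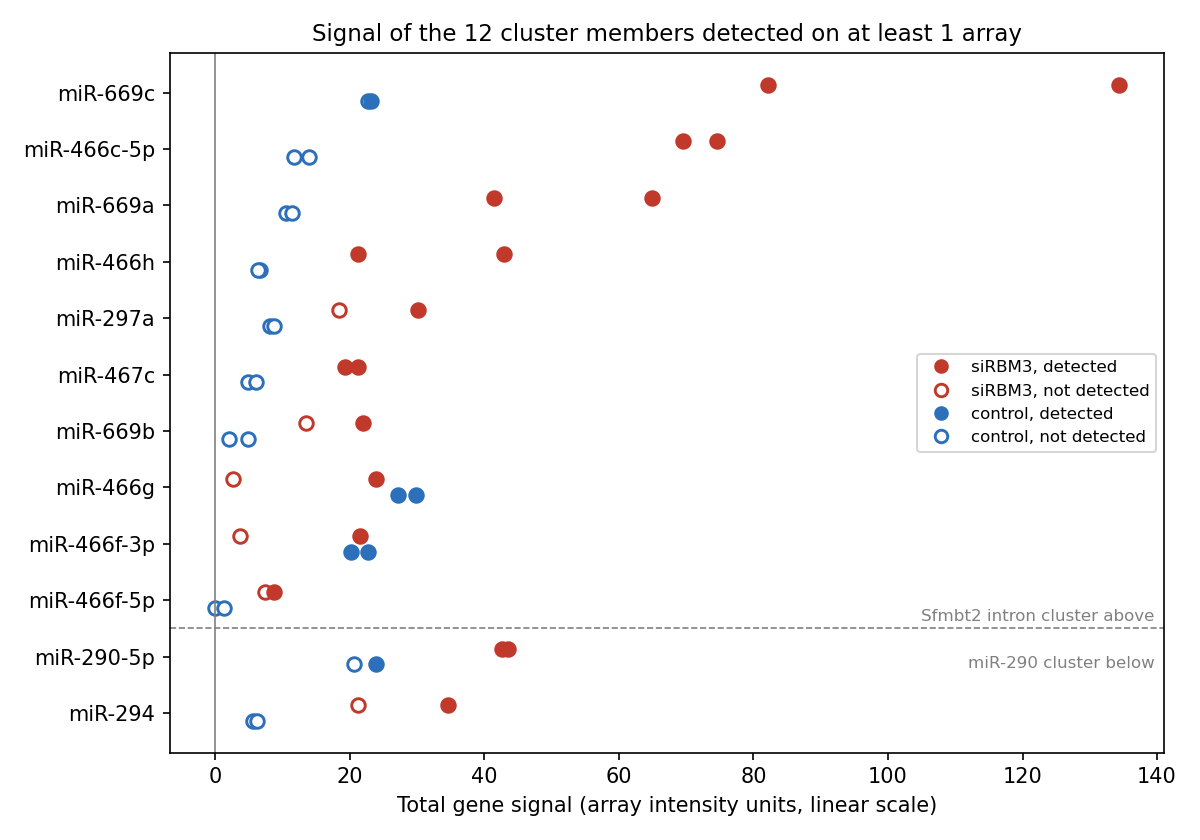
Total gene signal in array intensity units (linear axis) of the 12 members detected on at least 1 array, with red points for the 2 siRBM3 arrays above blue points for the 2 control arrays, filled where detected. Of the 12, 8 were detected on no control array and so appear here only through their siRBM3 signals, and miR-466g and miR-466f-3p have 1 siRBM3 array far below the other 3 arrays.

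The 3 miR-669 members all rose. miR-669c had 82.2 and 134 units on the siRBM3 arrays, against 22.7 and 23.1 on the control arrays. It was detected on both siRBM3 arrays and on 1 control array. The log2 difference was 1.70 ± 0.18 (SE, limma adjusted p = 0.00332), a 3.24-fold rise. miR-669a had 41.4 and 65.0 units in siRBM3 cells, against 10.5 and 11.4 in control cells, where neither array detected it. Where a group was not detected on either array, the fold is given as a bound, from the mean log2 level in siRBM3 cells over the mean, per control array, of the higher of the member's own level and the lowest detected level. Such a bound leaves out the spread between arrays. It uses the lowest level detected for any miRNA, which can lie under a member's own limit of detection. On control array 1 the lowest detected signal was 4.817 units, while miR-669c was not detected at 22.7 units. "At least" is meant only in this sense. The bound equals the fitted fold for miR-669a, miR-466c-5p and miR-297a, whose own level was the higher on both control arrays. miR-669a was at least 2.56-fold higher (log2 difference 1.35 ± 0.15, SE, limma adjusted p = 0.00358). miR-669b had 13.5 and 21.9 units in siRBM3 cells, only the brighter of them detected, against 4.82 and 1.98 in control cells. This was at least 1.57-fold higher (log2 difference 0.80 ± 0.16, SE, limma adjusted p = 0.0228). In all 3 the second siRBM3 array was the brighter, and the groups did not overlap.

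The miR-466 family split. miR-466c-5p had 69.5 and 74.6 units on the siRBM3 arrays, against 11.7 and 13.9 on the control arrays, and was at least 3.09-fold higher (log2 difference 1.63 ± 0.09, SE, limma adjusted p = 0.000511). Its 2 siRBM3 values were close, and the same difference was seen in both array pairs (1.61 and 1.64). miR-466h had 21.2 and 42.9 units in siRBM3 cells, against 6.60 and 6.36 in control cells, at least 2.07-fold higher (log2 difference 1.07 ± 0.19, SE, limma adjusted p = 0.0159). miR-466f-5p was dim throughout, at 7.32 and 8.71 units in siRBM3 cells, the second of them detected, against -0.08 and 1.30 in control cells. Both siRBM3 totals lay under the highest single negative control probe of their array (9.54 and 8.92 units), although a total sums several probes. The log2 difference of miR-466f-5p was 0.55 ± 0.09 (SE, limma adjusted p = 0.0118), at least 1.17-fold. These 3 were the only members of the 10 in the family to be called.

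Of the 7 members of this family that were not called, 2 were detected on at least 1 array. miR-466f-3p, named for the other arm of miR-466f, had 3.70 and 21.5 units on the siRBM3 arrays, against 20.2 and 22.7 on the control arrays. The groups overlapped, and the log2 difference was -0.28 ± 0.22 (SE, limma adjusted p = 0.403). miR-466g had 2.54 and 23.9 units in siRBM3 cells, against 27.1 and 29.8 in control cells, with a log2 difference of -0.50 ± 0.25 (SE, limma adjusted p = 0.23). Both control arrays detected these 2 miRNAs and only the second siRBM3 array did. In a fit of the 214 mouse miRNAs detected on at least 1 array, miR-466g was called lower, with limma adjusted p = 0.0136, as were 77.1% of the miRNAs in that fit. Without siRBM3 array 1 the log2 difference of miR-466f-3p turned to 0.13, and without siRBM3 array 2 it was -0.69. That of miR-466g was -0.0135 without siRBM3 array 1 (limma adjusted p = 0.963) and -0.99 without siRBM3 array 2, so its difference rested on siRBM3 array 1.

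The miR-467 and miR-297 families held 1 called member each. miR-467c had 19.2 and 21.2 units in siRBM3 cells, both detected, against 4.86 and 6.04 in control cells. It was at least 1.68-fold higher (log2 difference 0.78 ± 0.09, SE, limma adjusted p = 0.00413). It was the single called miRNA of 8 in the miR-467 family. miR-297a had 18.4 and 30.1 units in siRBM3 cells, the second detected, against 8.12 and 8.75 in control cells, at least 1.68-fold higher (log2 difference 0.75 ± 0.13, SE, limma adjusted p = 0.0159). It was the single called miRNA of 4 in the miR-297 family.

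In the miR-290 cluster miR-294 and miR-290-5p were higher in siRBM3 cells. miR-294, whose sequence carries the stem cell seed, had 21.2 and 34.5 units on the siRBM3 arrays, the second detected, against 5.62 and 6.21 on the control arrays. It was at least 1.96-fold higher (log2 difference 0.99 ± 0.14, SE, limma adjusted p = 0.00744). miR-290-5p had 43.5 and 42.6 units in siRBM3 cells, against 20.6 and 23.9 in control cells, where 1 array of 2 detected it. The log2 difference was 0.71 ± 0.09 (SE, limma adjusted p = 0.00599), a 1.64-fold rise. Both groups were tight, and the siRBM3 signals did not overlap the control signals.

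Members with the same seed as miR-294 were not called. miR-291a-3p and miR-295 have that seed and were detected on no array. miR-291a-3p gave 2.73 and 0.86 units in siRBM3 cells and -1.53 and 2.51 in control cells, and its log2 difference was 0.20 ± 0.13 (SE, limma adjusted p = 0.332). miR-295 gave 3.05 and 3.0 units in siRBM3 cells and 5.17 and 6.05 in control cells, with a log2 difference of -0.04 ± 0.09 (SE, limma adjusted p = 0.756). The seeds of miR-291b-3p and miR-290-3p differ from that of miR-294 at the last base. Both were undetected and not called, at log2 differences of -0.07 and 0.18. miR-292-5p and miR-293*, which share the seed of miR-290-5p, were not detected either, at log2 differences of 0.30 and 0.22. None of the 8 miR-302 and miR-367 forms on the array, which include the other main stem cell family, was detected or called, and their median log2 difference was 0.19, close to that of both clusters. The seed members other than miR-294 and miR-290-5p were named after their values were seen.

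**Figure D2:**
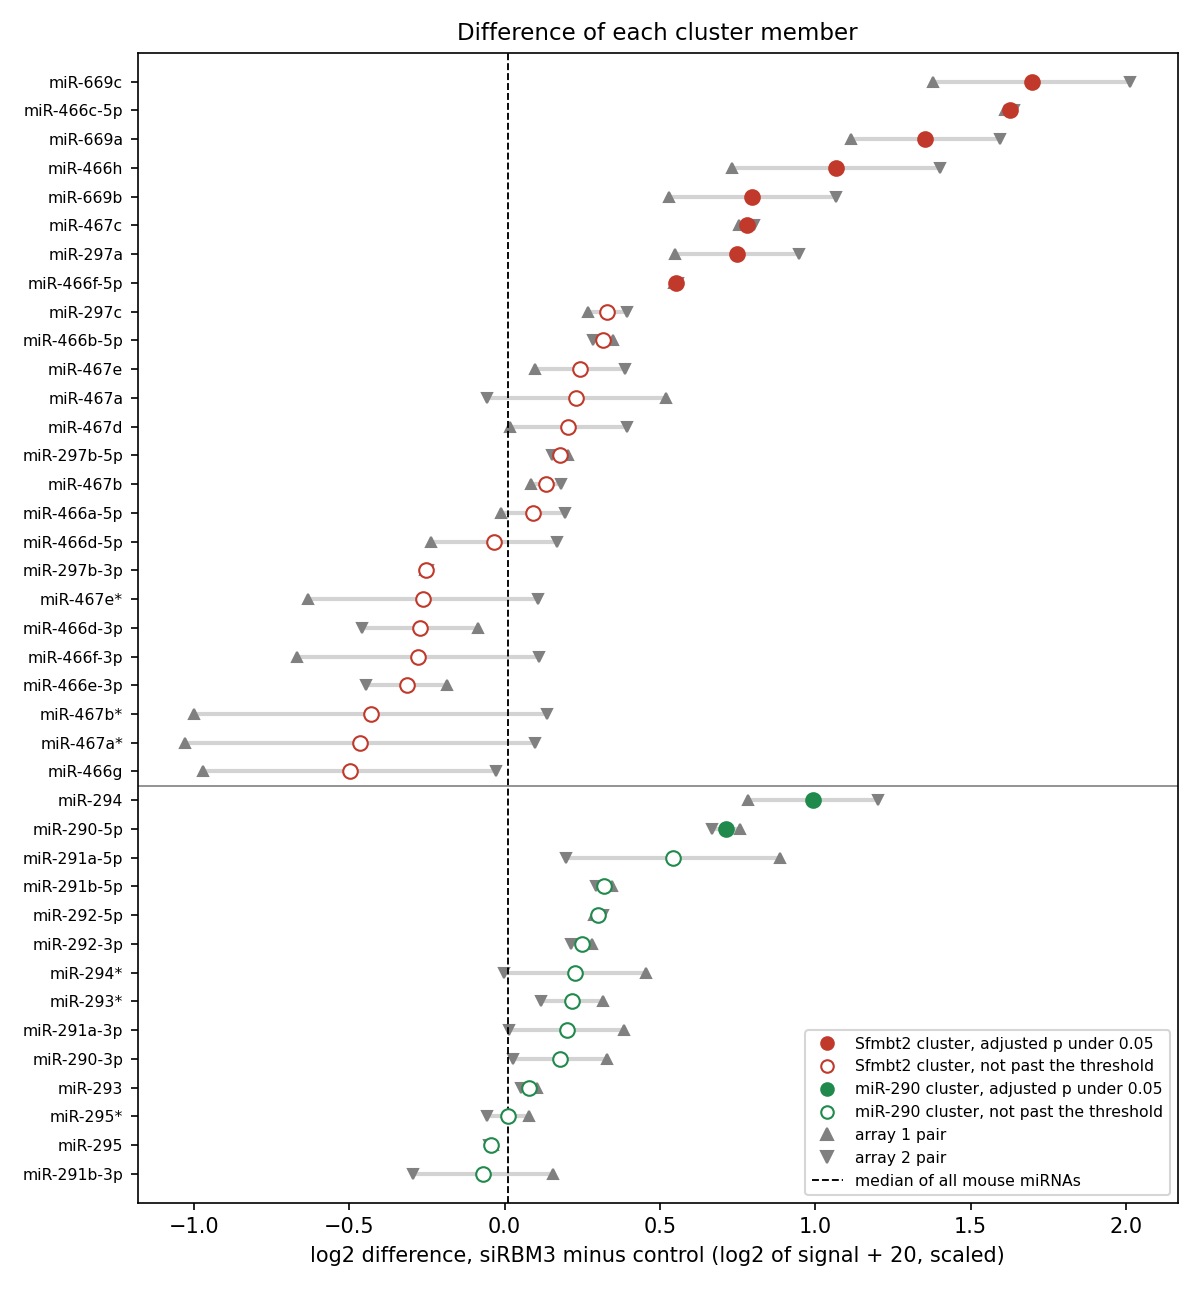
Log2 difference, siRBM3 minus control, of log2(signal + 20) for all 39 members, as the mean of the 2 array pairs (circles, filled where limma adjusted p was under 0.05) with each pair as a triangle, and the median of all mouse miRNAs as a dashed line. Sfmbt2 members run from 1.70 to -0.50, and pairs differ most for miR-467a*, miR-467b* and miR-466g.

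The 27 members detected on no array lay between -12.6 (miR-291a-5p, control array 1) and 17.6 units (miR-297c, siRBM3 array 2), with a median of 0.75. On the same arrays single negative control probes lay between -6.68 and 9.78 units, while a member's signal is a total over its probes. Totals of several undetected members lay above that range, and those of others below it. Above it on every array was miR-297c, with 15.7 and 17.6 units in siRBM3 cells and 11.7 and 11.6 in control cells.

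Within the Sfmbt2 cluster, the median difference varied with the arm in the miRNA's name. The range of the -3p or star members did not overlap that of the -5p members, while members with no arm in the name overlapped both. None of the 7 members named as -3p or star was called, all 7 log2 differences were below 0 (median -0.28, from -0.47 to -0.25), and 5 had both siRBM3 signals below both control signals, as did 46.4% of all mouse miRNAs. Of the 6 members named as -5p, 2 were called higher and the median was 0.25, from -0.03 to 1.63. Of the 12 with no arm in the name, 6 were called higher and the median was 0.54, from -0.50 (miR-466g, the lowest of the cluster) to 1.70. The split was noticed in the data, and 6 of the 7 -3p and star members were detected nowhere. Without siRBM3 array 1, 3 of the 7 differences were below 0 and their median was 0.05. With no scaling of the arrays 5 of the 7 were called lower, beside 195 of all 567, and centring on positive control probes turned all 7 above 0 (median 0.65, against 0.96 for all mouse miRNAs), with 5 called higher, beside 417 of all 567. In the miR-290 cluster the called members were miR-290-5p and miR-294, which has no arm in its name on the array and is the -3p miRNA in RefSeq.

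Over all members, 30 of 77 Sfmbt2 probes had both siRBM3 values above both control values and 18 had both below. Of 48 miR-290 cluster probes, 17 lay above and 8 below. Over all 1672 probes 18.6% lay above and 38.2% below, shares that also cover probes of brighter miRNAs. In the 10 called members all 28 probes lay above. These probes make up the total signals by which the members were called, so that count is a description and supports nothing further. For miR-669c the 2 probes averaged 61.9 and 61.9 units on siRBM3 array 1 and 95.2 and 107 on siRBM3 array 2, against 16.9 and 16.3 on control array 1 and 13.4 and 20.2 on control array 2. For miR-294 the 3 probes averaged 13.8 to 17.0 units on siRBM3 array 1 and 22.4 to 29.03 on siRBM3 array 2, against 2.67 to 5.84 on control array 1 and 2.35 to 5.88 on control array 2.

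**Figure D3:**
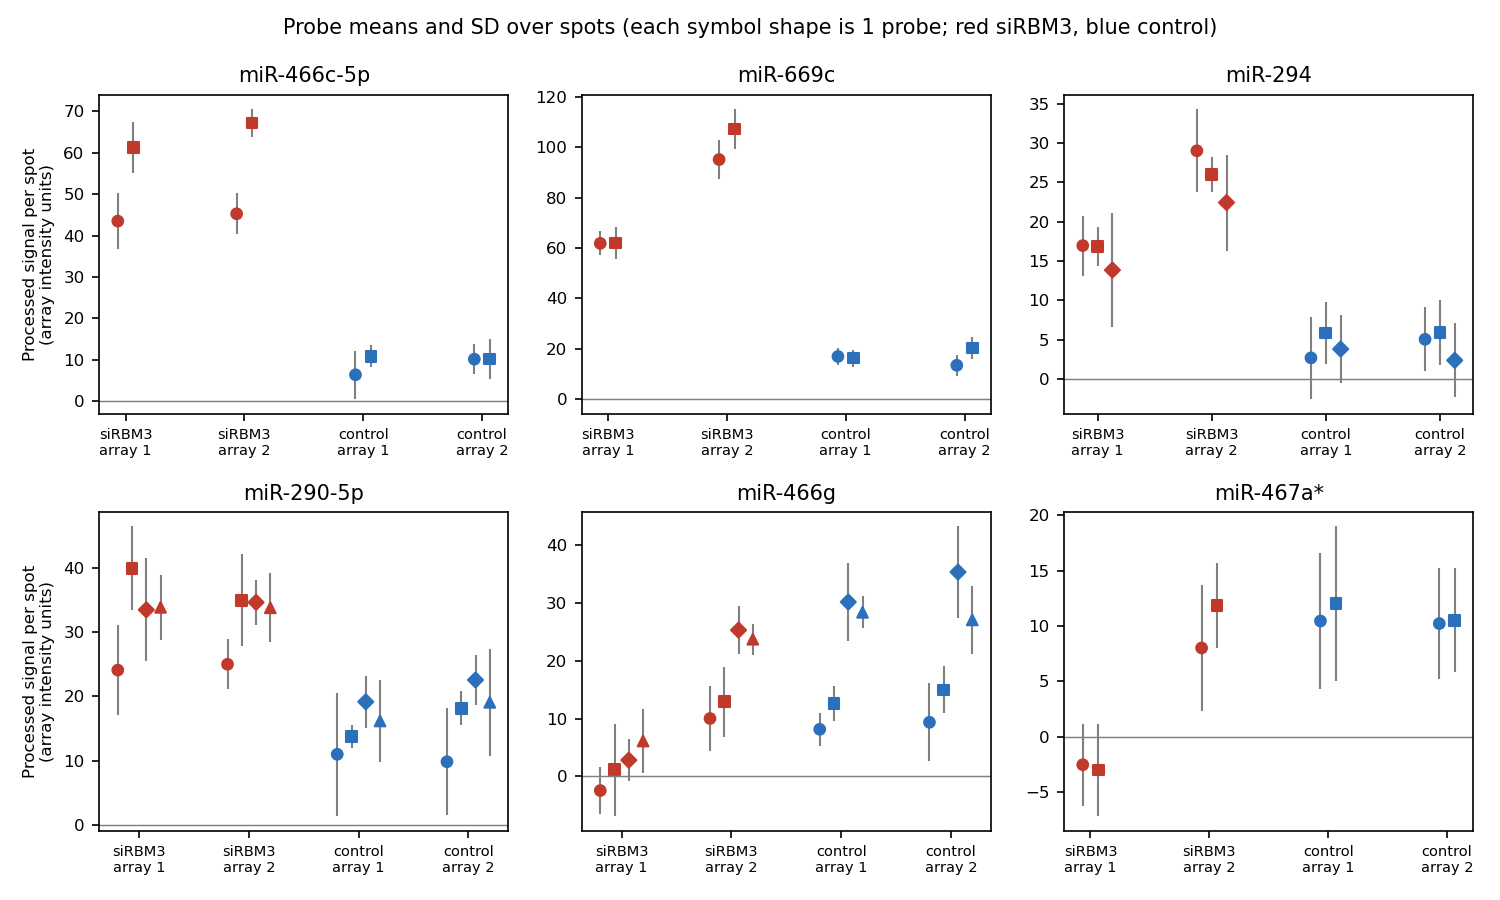
Mean processed signal per spot in array intensity units, with the SD over the spots of a probe as bars, for 6 members on the 2 siRBM3 arrays (red) and the 2 control arrays (blue), with 1 symbol shape for each probe. All probes of miR-466c-5p, miR-669c, miR-294 and miR-290-5p are higher on both siRBM3 arrays, while those of miR-466g and miR-467a* are near 0 on siRBM3 array 1 alone.

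Some members stood apart on a single array. On siRBM3 array 1, 6 of the 567 miRNAs (1.06%) lay more than 0.5 log2 below the other 3 arrays, and 5 of the 6 were Sfmbt2 members: miR-466f-3p, miR-466g, miR-467a*, miR-467b* and miR-467e*. miR-467a* had -3.67 and 13.2 units in siRBM3 cells, against 15.3 and 14.2 in control cells. miR-467b* had -7.50 and 6.91 units in siRBM3 cells, against 6.36 and 6.82 in control cells, and miR-467e* had -0.16 and 10.4, against 12.7 and 11.1. All 3 were detected nowhere. The sixth was miR-574-3p, at -0.61 and 20.8 units in siRBM3 cells, against 21.6 and 20.8 in control cells. This pattern, its limit of 0.5 and these names were chosen after the values were seen, and with 1 array there is no replicate of it. On siRBM3 array 2, 5 miRNAs (0.882%) lay as far above the other 3 arrays, among them miR-466h and miR-669c, which were called.

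**Figure D4:**
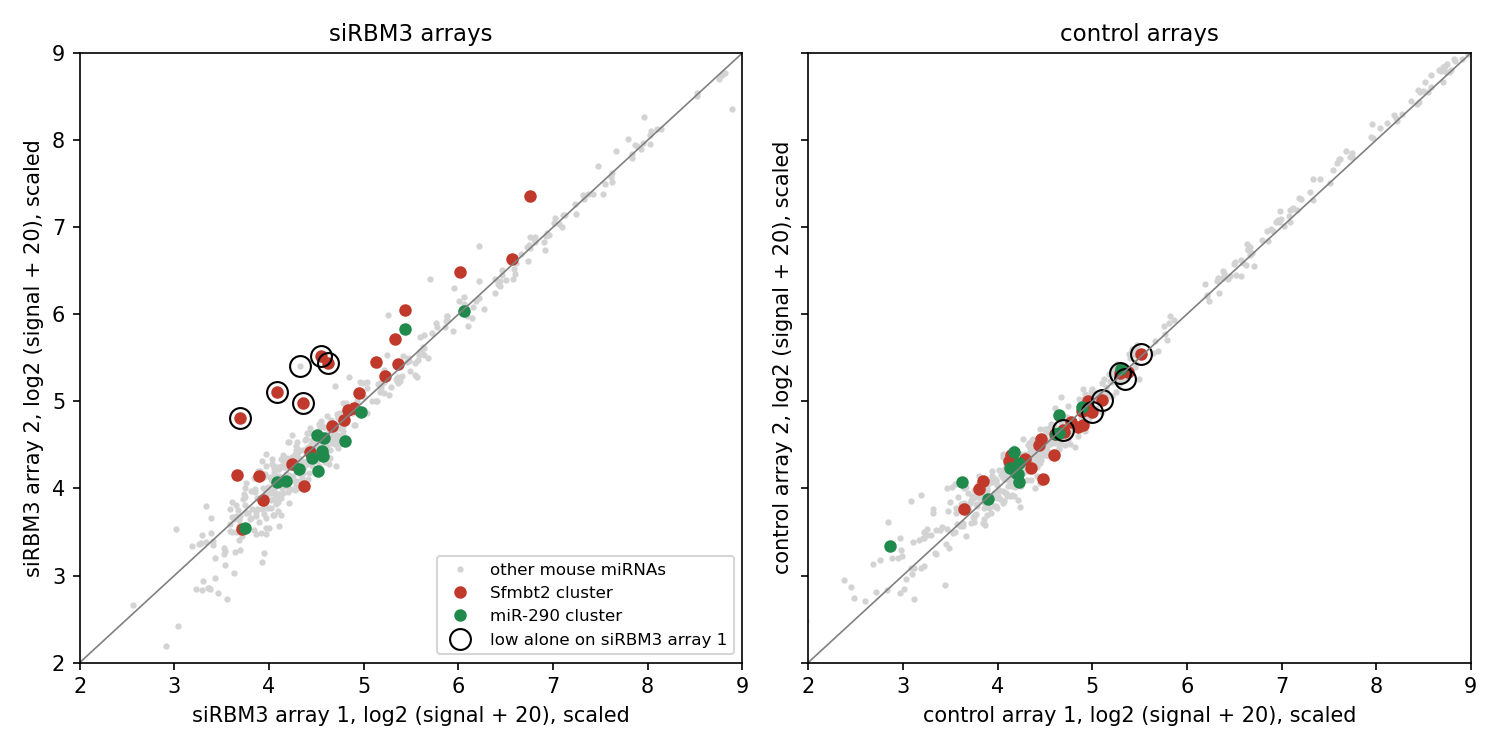
Scaled log2(signal + 20) on array 1 (x axis) against array 2 (y axis) for siRBM3 (left) and control (right), with Sfmbt2 members in red, miR-290 cluster members in green, other miRNAs in grey and black rings around the 6 miRNAs low on siRBM3 array 1 alone. The ringed points lie well above the diagonal on the siRBM3 arrays and on it on the control arrays; 50 miRNAs with a value above 9 on an array and 3 below 2 may fall outside the axes.

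The miR-574 hairpin, which is in neither cluster, had 1 arm called higher and the other not called. Its 5p arm, the UGUGUG sequence shown above with 91.3% G and U, had 421 and 288 units on the siRBM3 arrays, against 56.5 and 59.3 on the control arrays, all detected. Its log2 difference of 2.42 ± 0.16 (SE, limma adjusted p = 0.000788) was the highest of the 567 miRNAs. It was brighter on siRBM3 array 1, unlike miR-669c. Its 3p arm, with 81.8% A and C, had a log2 difference of -0.43 ± 0.31 (SE, limma adjusted p = 0.365).

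The size of each difference depended on how the arrays were scaled. The median of all mouse miRNAs was 0.01 with scale normalization and -0.09 with no scaling. Centring the arrays on their positive control probes moved it to 0.96, and centring on the 75th percentile of the miRNAs detected on all arrays moved it to 2.02. Beside these, the Sfmbt2 median was 1.17 and 2.22, and the miR-290 cluster median 1.17 and 2.23. Calls over all 567 miRNAs were 417 higher and 113 lower with the positive control probes, and 493 higher and 17 lower with that percentile, against 52 higher and 176 lower with scale normalization. With no scaling, where 47 miRNAs were called higher and 195 lower, all 10 called members were still called higher. They were also called higher with both centrings, which call most of the array higher. When each array was left out in turn all 10 were called higher as well, in fits where a lone array of a group is assumed to vary like the other group. The call was lost for all 10 where signals below 0.5 were set to 0.5 and no scaling was done (adjusted p 0.0608 to 0.35, limma over all miRNAs), a setting in which 1 of the 567 miRNAs was called higher. The log2 differences of the 10 were then larger than in the fit above, from 0.96 for miR-290-5p to 3.31 for miR-466f-5p. Under quantile normalization the call was lost for miR-297a, miR-466h and miR-669b (limma adjusted p from 0.0508 to 0.0991), whose log2 differences were 1.104, 1.58 and 1.04, against 0.75, 1.07 and 0.80 with scale normalization.

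**Figure D5:**
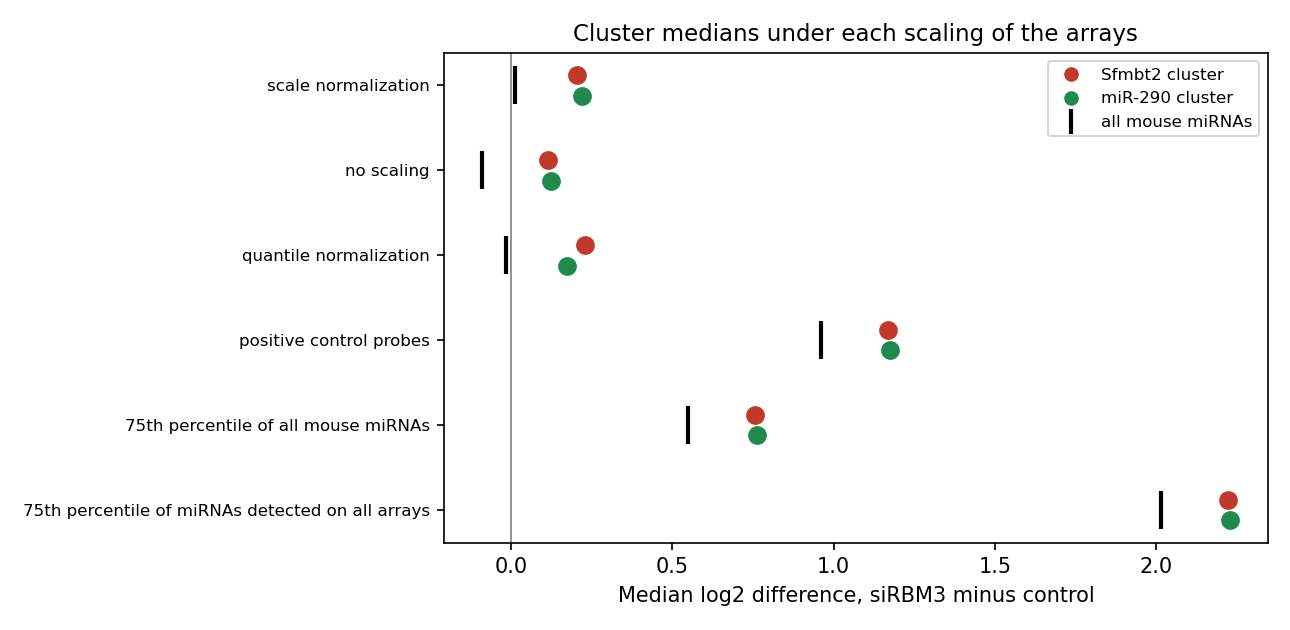
Median log2 difference, siRBM3 minus control (x axis), of the Sfmbt2 members (red), the miR-290 cluster members (green) and all mouse miRNAs (black bars) under 6 scalings of the arrays. Both cluster medians lie above that of all miRNAs under each scaling, and all 3 shift together, the clusters to 2.22 and 2.23 with the 75th percentile of miRNAs detected on all arrays. The black bars also cover brighter miRNAs, while most members were detected on no array.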

How the data were processed

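Agilent mouse miRNA arrays (1 colour, Cy3, all 4 on 1 slide, RNA from the mirVana kit) were scanned by the authors and read with Feature Extraction 10.1.1.1. The deposited files hold background-subtracted intensity per spot, a total gene signal per miRNA and detection flags; the series' value table is the same total signal with 20 added (within 2.27e-13). Precision is limited by 2 arrays per group. Here log2(total signal + 20) was scale-normalized over 567 mouse miRNAs and fitted with limma 3.58.1 in R 4.3.3 (lmFit, eBayes, replicate number as block, Benjamini-Hochberg at 0.05). The code was checked on simulated data with the same noise SD for every miRNA, which says nothing about the calls made here. The methods' filter, detection on at least 1 array, leaves 216 names (214 of them mouse); members were fitted with all 567, because the filter admits members that are high in 1 group. The block follows the methods' allowance for paired samples; deviations of same-numbered arrays correlated at -0.17. Members detected on at least 1 array are named with all signals, undetected ones by counts with the highest and lowest; others only for UGUGUG or the seed of miR-294, unless marked. Members and lists were chosen with earlier results of these data known. Alternatives covered scaling, offset, floor, filter, background correction, block and each array left out.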

Additional observations from a re-analysis of the deposited data

How the results depend on the processing

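With 2 arrays per group, and 27 of 39 members detected on no array, small differences of undetected members rest on signals under the detection limit. Counts below are of miRNAs called by limma at an adjusted p under 0.05, against 52 higher and 176 lower of all mouse miRNAs, 38 and 165 of those detected on at least 1 array, 8 and 0 Sfmbt2 members and 2 and 0 miR-290 cluster members with the settings of the report. Centring on the 75th percentile of the miRNAs detected on all arrays gave 493 and 17 of all, 140 and 21 of those detected, 25 Sfmbt2 and 14 miR-290 cluster members higher, and cluster medians of 2.22 and 2.23. Centring on the 75th percentile of all gave 372 higher, 18 and 14 members and medians of 0.75 and 0.76. The positive control probes gave 417 and 113 of all, 73 higher of those detected, 22 and 14 members and medians of 1.17 and 1.17. The mean log2 processed signal per probe gave 401 and 29 of all, 75 and 23 of those detected, 20 and 12 members and medians of 2.24 and 2.35. A floor of 0.5 with scaling gave 157 and 26 of all, 131 and 19 of those detected, 13 and 4 members and medians of 1.65 and 0.63. The same floor with no scaling gave 1 and 17 of all, 0 members higher in either cluster and an Sfmbt2 median of 0.10. Quantile normalization gave 67 lower of all and 103 lower of those detected, and normexp with quantile normalization 117 lower and medians of 0.075 and 0.046. With no scaling 6 Sfmbt2 members were lower, and their median was 0.11. An offset of 5 gave 81 higher of all, 6 miR-290 cluster members and an Sfmbt2 median of 0.34, and an offset of 50 gave 1 Sfmbt2 member lower and a median of 0.085. A minimum of 1.5-fold left 33 of all higher, and detection on all 4 arrays left 14 higher and no member in the fit. With no replicate block 1 Sfmbt2 member was lower. Chosen after seeing the data, a variance trend gave 4 miR-290 cluster members higher, and crossing the replicate numbers, since same-numbered arrays correlated below 0, gave 10 Sfmbt2 members higher and 2 lower. The cause of these changes was not tested.

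Leaving out 1 array at a time gave 43 to 78 of all higher and 170 to 186 lower, 35 to 40 and 161 to 167 of those detected, 8 to 10 Sfmbt2 members higher and 0 to 6 lower (6 without siRBM3 replicate 2, 2 without siRBM3 replicate 1, 1 without control replicate 1), and 2 to 4 miR-290 cluster members higher (4 without siRBM3 replicate 1, siRBM3 replicate 2 or control replicate 2). The Sfmbt2 median ran from 0.15 to 0.23 and the miR-290 cluster median from 0.17 to 0.26. The difference of miR-466f-3p turned to 1.70 with the percentile of detected miRNAs, 0.24 with that of all, 0.65 with positive controls, 0.79 with the floor and scaling, 0.99 per probe, 0.023 with normexp and 0.13 without siRBM3 replicate 1, and was -0.69 without siRBM3 replicate 2. That of miR-466g turned to 1.48, 0.017, 0.43, 0.21 and 0.59 under the first 5 of these. No direction of the 10 members called higher turned.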
